A study of Mus musculus with 18 samples.

Results

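The 9 genes described here mark the filtering cells and tubule segments of the kidney, and the measurement is BMAL1 binding inside them or within 50 kb of either end. BMAL1 is the transcription factor that forms the positive limb of the circadian clock together with CLOCK, and the pair binds E-boxes, short DNA elements whose canonical form is CACGTG. The genes are Umod, Nphs1, Lrp2, Cubn, Cdh16, Kl, Calb1, Pvalb and Kap, 9 of the 21627 protein-coding genes on the chromosomes that carried peaks in a RefSeq table of the mouse assembly GRCm38.p6. A peak was counted when its centre lay inside a gene or within 50 kb of an end, which selected 7 of 4813 liver peaks, 11 of 4034 kidney peaks and 2 of 2519 heart peaks. A list of marker genes for cells cannot be checked in binding data, which hold no expression values, so the name of the list rests on what the genes are known for.

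The series held chromatin immunoprecipitation and sequencing (ChIP-seq) of BMAL1 and matched input DNA of 3 organs, with 3 ChIP and 3 input libraries each. Liver, kidney and heart came from the same animals, 3 wild-type C57BL/6 mice per tissue, aged 3 to 6 months. The animals lived in a cycle of 12 h light and 12 h dark and ate and drank freely. Every tissue was taken 6 h after lights on, so no second time point and no animal without BMAL1 was compared. The antibody was raised in chicken against the amino-terminal part of mouse BMAL1. Whole organs were used: the kidney list pools glomeruli and all tubule segments, and no peak can be placed in a podocyte or a given segment. One peak list per tissue was made from all its libraries together, so no value below has a spread between animals, and no test was made. Each peak carries a whole-number score of unstated meaning and scale, so it served only to rank peaks within a list. Kidney scores lay between 14 and 304 with a median of 28, liver scores between 17 and 389 (median 40), and heart scores between 16 and 375 (median 25). Rank 1 is the highest score of a list. Heart input libraries have a source name that says kidney although their titles say heart. Whether kidney input was used for the heart list was not tested, and every result that rests on heart carries that doubt.

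In the nephron, blood is filtered through the slit diaphragm between podocytes, and the filtrate then passes along tubule segments that take back protein, ions and water. Nphs1 encodes nephrin, the main protein of the slit diaphragm. Lrp2 (megalin) and Cubn (cubilin) encode the receptors by which the proximal tubule takes filtered protein back up, and Kap encodes an androgen-regulated proximal tubule protein. Umod encodes uromodulin, which the thick ascending limb secretes into urine. Pvalb (parvalbumin) and Calb1 (calbindin) are calcium-binding proteins of the distal tubule, Kl (klotho) is the co-receptor for the phosphate hormone FGF23, and Cdh16 encodes a cadherin found along the kidney epithelium.

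Kidney BMAL1 peaks lay near 7 of the 9 genes, liver peaks near 5 and heart peaks near 2. The shares of all protein-coding genes by the same rule were 33.5% for kidney, 34.4% for liver and 23.0% for heart. Within 50 kb the heart count was thus near the background. The 20 peaks formed 15 separate sites, of which 7 were found in kidney alone, 3 in liver alone, 1 in heart alone, 3 in liver and kidney, and 1 in all 3 tissues. Of the 11 kidney peaks, 63.6% were found in kidney alone, beside 57.7% of the whole kidney list, which is near the background. The highest-scoring of these kidney peaks lay at the start of Lrp2 and upstream of Nphs1, and both were found in kidney alone. Pvalb and Kap had no peak in any list. The 7 genes with a peak of any tissue compare with 51.3% of all protein-coding genes. At 5 of the 15 sites the marker gene was the nearest protein-coding gene, and at the other 10 a neighbour was nearer.

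**Figure D1:**
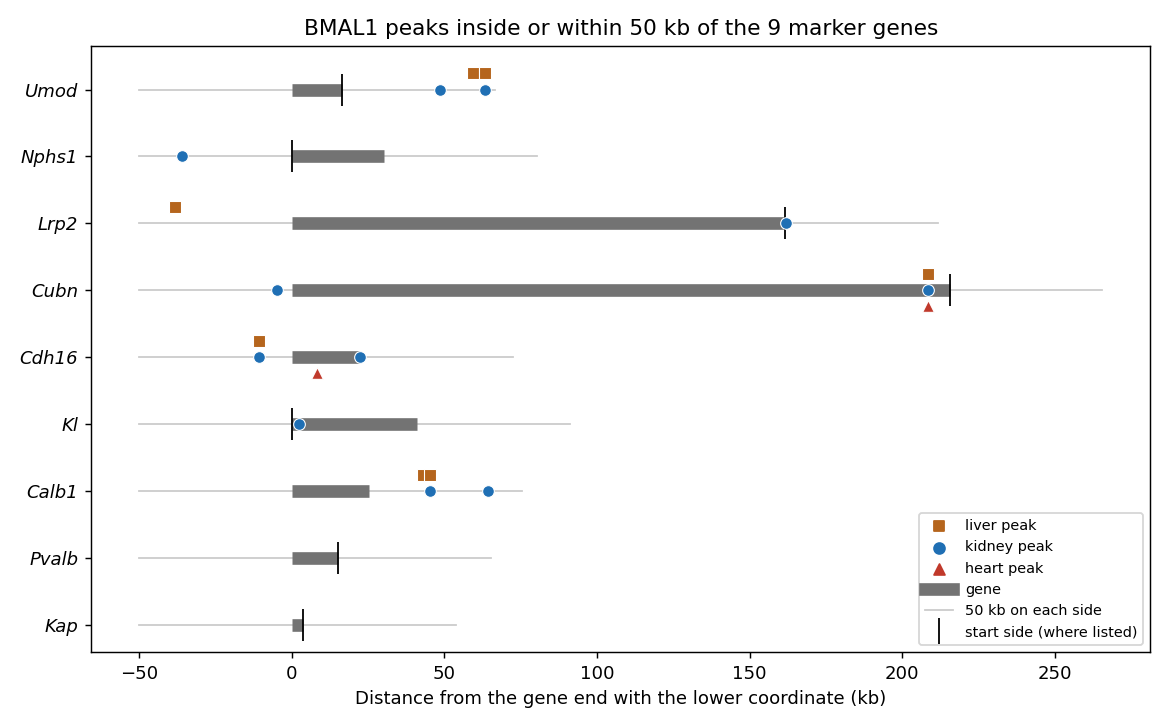
Each row is a gene, drawn as a grey bar from its lower to its upper coordinate end, with thin lines for 50 kb on each side. The horizontal axis is the distance in kb from the lower end, a black tick marks the side of the gene's start where the promoter table lists it, and markers are peak centres of liver (squares), kidney (circles) and heart (triangles). Kidney peaks appear at 7 genes, the Lrp2 peak stands at the start of the gene, and the Pvalb and Kap rows are empty.

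Of these sites, 6 overlapped a promoter window, the 250 bases before to 50 bases after a gene's start in a RefSeq promoter table of GRCm38.p6. These windows are printed to show which of them hold an E-box. Sites outside any window, among them the shared sites in Decr1 and Cubn, were not searched. The 6 therefore do not show how kidney-only and shared sites compare. The Lrp2 window is chr2:69585980-69586279 on the minus strand, and the windows of Nfkbid (chr7:30422156-30422455, plus strand) and Gm51588 (chr8:104624119-104624418, plus strand) belong to the sites near Nphs1 and at the upper end of Cdh16. The window of Rsu1 (chr2:13271366-13271665, minus strand) belongs to a site below Cubn. These 4 were overlapped by kidney-only peaks. The windows of Acsm5 (chr7:119526015-119526314, plus strand) and Pdp2 (chr8:104591222-104591521, plus strand) belong to sites near Umod and Cdh16 that liver and kidney shared. Sequences run 5′ to 3′ on the strand of the gene, the start site is base 251 of each, and capitals mark CACGTG or, on either strand, CACGTT, a variant of the E-box.
Lrp2: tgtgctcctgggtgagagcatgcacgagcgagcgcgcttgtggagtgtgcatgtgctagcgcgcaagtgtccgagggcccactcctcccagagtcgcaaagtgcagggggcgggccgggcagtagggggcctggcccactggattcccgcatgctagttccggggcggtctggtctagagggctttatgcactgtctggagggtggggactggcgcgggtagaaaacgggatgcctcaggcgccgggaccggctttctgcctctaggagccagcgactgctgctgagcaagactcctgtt
Nfkbid: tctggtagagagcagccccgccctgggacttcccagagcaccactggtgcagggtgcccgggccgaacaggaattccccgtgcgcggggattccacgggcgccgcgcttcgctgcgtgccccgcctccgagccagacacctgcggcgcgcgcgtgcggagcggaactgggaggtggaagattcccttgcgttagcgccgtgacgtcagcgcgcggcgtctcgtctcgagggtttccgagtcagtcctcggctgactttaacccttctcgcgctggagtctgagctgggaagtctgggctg
Gm51588: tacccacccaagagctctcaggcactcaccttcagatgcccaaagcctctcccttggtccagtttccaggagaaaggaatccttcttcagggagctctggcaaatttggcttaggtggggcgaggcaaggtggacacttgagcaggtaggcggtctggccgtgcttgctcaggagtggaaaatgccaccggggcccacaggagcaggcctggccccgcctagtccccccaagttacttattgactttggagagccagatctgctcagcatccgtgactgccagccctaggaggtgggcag
Rsu1: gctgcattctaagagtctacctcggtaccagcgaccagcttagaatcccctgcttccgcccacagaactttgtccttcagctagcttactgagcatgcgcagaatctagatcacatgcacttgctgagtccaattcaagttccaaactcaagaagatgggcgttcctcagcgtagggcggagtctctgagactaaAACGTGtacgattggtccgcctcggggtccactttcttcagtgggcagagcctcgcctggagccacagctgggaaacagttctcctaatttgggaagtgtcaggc
Acsm5: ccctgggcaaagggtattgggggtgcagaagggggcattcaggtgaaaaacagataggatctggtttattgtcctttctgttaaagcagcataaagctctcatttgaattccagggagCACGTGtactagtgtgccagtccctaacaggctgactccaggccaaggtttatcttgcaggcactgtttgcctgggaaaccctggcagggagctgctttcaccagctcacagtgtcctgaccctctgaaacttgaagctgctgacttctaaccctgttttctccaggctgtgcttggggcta
Pdp2: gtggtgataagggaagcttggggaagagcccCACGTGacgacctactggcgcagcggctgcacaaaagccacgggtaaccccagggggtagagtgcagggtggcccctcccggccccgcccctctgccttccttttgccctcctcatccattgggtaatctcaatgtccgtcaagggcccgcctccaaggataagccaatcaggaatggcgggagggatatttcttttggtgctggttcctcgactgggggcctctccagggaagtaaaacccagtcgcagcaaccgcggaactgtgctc

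Both windows under peaks shared by liver and kidney held the canonical E-box. In the Acsm5 window CACGTG began at position -132 from the start site, with its middle 9 bp from the centre of the liver peak and 17 bp from that of the kidney peak. The Pdp2 window had it at position -219, with 11 bp to the liver centre and 39 bp to the kidney centre. None of the kidney-only windows at Lrp2, Nfkbid, Gm51588 and Rsu1 held CACGTG. Rsu1 had CACGTT, written AACGTG on its own strand, at position -55 and 21 bp from the kidney centre. The window of Gm13270, a gene that starts on the opposite strand beside Rsu1, covers the same bases. The looser form CANNTG, which also takes in CACGTG, occurred in all 6 printed windows. In the Gm51588 window its matches lay 213 and 111 bp from the kidney centre, outside the peak. In the whole promoter table CACGTG was present in 7.15% of 32851 windows, CACGTT in 4.68% and CANNTG in 72.3%, each searched on both strands. CACGTT was present in 9.80% of the windows overlapped by a kidney-only peak and in 9.19% of those under a shared kidney peak. Among windows overlapped by any kidney peak, CACGTG was present in 35.8% of 1360. Where the kidney peak was shared with another tissue the share was 45.4% (321 of 707 windows), and where it was kidney-only it was 25.4% (166 of 653). A match is a description of the letters only, and a window without one says nothing about sequence outside it, where part of the peak can lie.

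Lrp2 had the highest-ranked of the 11 kidney peaks. This peak (chr2:69586151-69586338) scored 86 and ranked 286 of 4034, within the upper 7.09% of the kidney list. Its centre lay 216 bp upstream of the Lrp2 start, and the peak covered 129 of the 300 bases of the printed window. No other protein-coding gene lay within 50 kb of it. The liver list had no peak at this place. Its one peak near Lrp2 (chr2:69386175-69386416, score 52, rank 1645 of 4813) lay 38.0 kb beyond the far end of the gene, inside Dhrs9, a short-chain dehydrogenase gene. The nearest heart peak was 563 kb away.

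Cubn, the partner of megalin in protein uptake, carried the one site found in all 3 tissues. It lay inside the gene, 7.13 kb after the start by the centre of the kidney peak and 7.19 kb by that of the liver peak, and the 3 centres fell within 61 bp. The score was 32 in liver (chr2:13484567-13484808, rank 2961 of 4813), 16 in kidney (chr2:13484655-13484842, rank 3480 of 4034) and 19 in heart (chr2:13484615-13484812, rank 1708 of 2519). All 3 scored below the median of their lists (rank at 61.5, 86.3 and 67.8% of the list), and the kidney score was 2 above the lowest that list holds. Whether the site is exonic or intronic is not given by the table used. A second kidney peak (chr2:13271395-13271582, score 17, rank 3323) lay 4.85 kb beyond the other end of Cubn, in the promoter window of Rsu1, a gene for an adaptor at integrin adhesions.

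Near Nphs1 there was 1 peak, in kidney alone (chr7:30422209-30422396). It scored 66 and ranked 502 of 4034, in the upper 12.4%, the second highest of the 11 kidney peaks. Its centre was 35.9 kb from the nearer end of Nphs1, 37.8 kb upstream of the start in the promoter table, and inside Nfkbid, which encodes a nuclear regulator of NF-kappaB, and the whole peak lay in the Nfkbid promoter window. Between the peak and Nphs1 lie further genes, among them Kirrel2, a nephrin relative, 25.5 kb from the peak by its nearer end. Hcst and Tyrobp, adaptors of immune cell receptors, were 2.45 and 4.72 kb from it. Just outside the 50 kb limit, a liver peak lay 71.0 kb from Nphs1 (score 19, rank 4450 of 4813), nearest to Lin37.

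The 4 peaks near Umod all lay upstream of it, between 32.0 and 46.9 kb from the gene and inside its neighbour Pdilt, which encodes a protein disulfide isomerase-like protein. The nearest to Umod was a kidney-only peak of low score (chr7:119511170-119511357, score 15, rank 3635 of 4034). A liver-only peak followed at 42.7 kb (chr7:119521850-119522091, score 60, rank 1325 of 4813). The farthest site was shared, with a liver score of 68 (chr7:119526024-119526265, rank 1060) and a kidney score of 33 (chr7:119526059-119526246, rank 1588), and stood at the start of Acsm5, a medium-chain acyl-CoA synthetase gene. The centres of its 2 peaks were 8 bp apart. No peak lay within 10 kb of Umod in any list, and the nearest heart peak was 1220 kb away.

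Cdh16 had sites of 3 kinds. One was shared by liver (chr8:104591146-104591387, score 69, rank 1035 of 4813) and kidney (chr8:104591201-104591388, score 37, rank 1349 of 4034) 10.6 kb below the gene, at the start of Pdp2, which encodes a pyruvate dehydrogenase phosphatase. A kidney-only peak (chr8:104624273-104624460, score 27, rank 2045) covered the upper end of Cdh16, with its centre 29.5 bp inside the gene and its lower part in the promoter window of Gm51588. A heart-only peak (chr8:104610281-104610478) lay inside the gene, 8.46 kb from its lower end, with a score of 55 and rank 414 of 2519. The heart list thus held a peak in the upper 16.4% of its ranks inside a gene known as a kidney marker, while the kidney and liver lists had none at that place. A further heart peak lay just beyond the 50 kb limit, 67.6 kb from Cdh16 and nearest to Nae1 (score 23, rank 1406).

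Kl had 1 peak, in kidney alone (chr5:150954934-150955121, score 23, rank 2474 of 4034). Its centre was inside the gene, 2.42 kb after the start and outside the promoter window. No other protein-coding gene lay within 50 kb of it. The nearest liver peak was 229 kb from Kl and the nearest heart peak 428 kb.

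The 4 peaks near Calb1 all lay at Decr1, the neighbouring gene, which encodes a mitochondrial enzyme of unsaturated fatty acid oxidation. Liver and kidney shared a site inside Decr1, 20.0 kb above Calb1, with a score of 78 in liver (chr4:15926609-15926850, rank 788 of 4813) and 29 in kidney (chr4:15926618-15926805, rank 1874 of 4034). A liver-only peak inside Decr1 scored 39 (chr4:15924018-15924259, rank 2408). A kidney-only peak 46 bp outside Decr1 scored 15 (chr4:15945329-15945516, rank 3635), the same score as the weakest peak near Umod. Neither Calb1 itself nor the 10 kb around it held a peak.

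For Pvalb and Kap the nearest peaks were far outside the limit. The nearest kidney peak was 199 kb from Pvalb and 182 kb from Kap, both with a score of 24, and the nearest liver and heart peaks were between 181 and 319 kb away. The promoter windows of these 2 genes held neither CACGTG nor CACGTT, and the same was true of the Umod, Nphs1, Lrp2, Cubn and Kl windows. Of the 9 genes, 7 were matched in the promoter table, and Cdh16 and Calb1 were not.

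**Figure D2:**
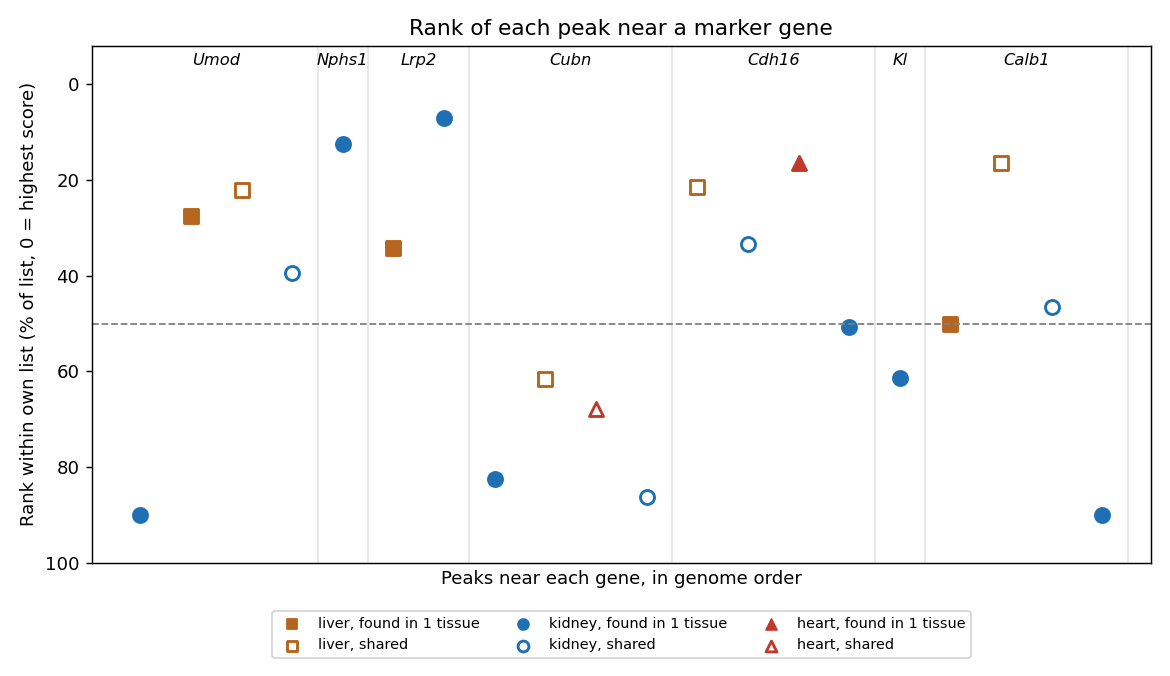
Each point is 1 of the 20 peaks, grouped by gene along the horizontal axis, and the vertical axis is its rank as a percent of its own list, with the highest score at the top and a dashed line at 50%. Filled symbols are peaks found in 1 tissue and open symbols are shared peaks. The Lrp2 and Nphs1 kidney peaks stand highest at 7.09 and 12.4%, and the kidney peaks at 90.1% near Umod and Calb1 stand lowest.

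The kidney peaks near the genes spread over the whole list. Their median score was 27, beside 28 for all kidney peaks, and 5 of the 11 scored above that median. The 7 liver peaks had a median score of 60 beside 40 for all liver peaks, and 5 of them scored above it. At each of the 3 sites shared by liver and kidney alone, the peak had a better rank as a percent of the list in liver (22.0, 21.5 and 16.4% at Acsm5, Pdp2 and Decr1) than in kidney (39.4, 33.4 and 46.5%). Lists of different length do not give a change from these ranks. How often all peaks shared by liver and kidney rank better in liver was not counted, so this is not shown to be particular to these sites. The 7 kidney-only peaks had a median score of 23, beside 22 for all kidney-only peaks, and the 4 shared kidney peaks one of 31, beside 44 for all shared kidney peaks. The 3 liver-only peaks had a median of 52, beside 32 for all liver-only peaks, and the 4 shared liver peaks one of 68.5, beside 66.

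How these counts compare with other genes was read from the same rule applied to every protein-coding gene. A kidney peak lay inside or within 50 kb of 33.5% of them, beside 7 of the 9 markers. For liver the share was 34.4%, beside 5 of 9, and for heart 23.0%, beside 2 of 9. The heart count was therefore near the background. Within 10 kb the counts fell to 4 markers in kidney and 1 in liver and stayed at 2 in heart. The shares of all genes at that distance were 18.2, 18.3 and 11.7%. The markers' median length was 25.4 kb against 17.3 kb, and among 5 equal groups of all genes by length the share with a kidney peak ran from 20.0% in the shortest to 38.2% in the middle group. Per Mb of gene and flank there were 7.68 kidney peaks at the markers and 3.44 at all genes, 4.89 and 3.79 in liver, and 1.40 and 1.90 in heart. These values describe a list of 9 chosen genes and carry no test.

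The pattern across tissues was read the same way. Nphs1 and Kl had peaks in kidney alone, a set shared with 1770 protein-coding genes in all (8.18%). Umod, Lrp2 and Calb1 had liver and kidney peaks (2391 genes, 11.1%), Cubn and Cdh16 had peaks of all 3 tissues (2415, 11.2%), and Pvalb and Kap had none (10532, 48.7%). No marker had liver peaks without kidney peaks, a pattern of 1966 genes (9.09%) for liver alone and 665 (3.07%) for liver with heart. For a list of 9 genes that is near the background. Of the kidney peaks near the markers 7 of 11 (63.6%) were found in kidney only, beside 57.7% of the whole kidney list, which is near the background. Liver gave 3 of 7 (42.9%) beside 66.5%, and heart 1 of 2 beside 65.0%. Leaving the heart list out kept the kidney count at 7 of 11, beside 63.4% of the list without a liver partner. Promoter windows were overlapped by 6 of the 11 kidney peaks (54.5%), beside 28.1% of the list, but the Lrp2 window was the only one of these listed for a marker gene. Cdh16 and Calb1 had no window in the promoter table, so a peak at their start could not be counted this way. For liver it was 2 of 7 (28.6%) beside 18.2%, and for heart 0 of 2 beside 23.1%.

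**Figure D3:**
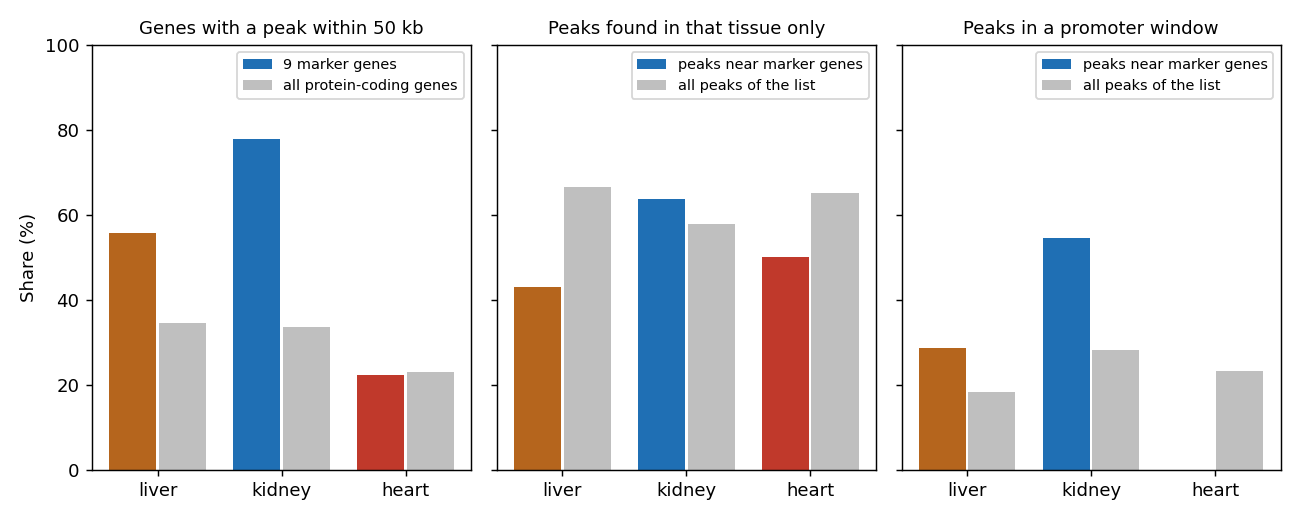
Bars give shares in percent for each tissue, coloured for the 9 marker genes or the peaks near them and grey for all protein-coding genes or all peaks of the list. The panels show genes with a peak inside or within 50 kb, peaks found in that tissue only, and peaks overlapping a promoter window, each for liver, kidney and heart. In the first panel kidney stands at 77.8% beside 33.5%, while heart stands at 22.2% beside 23.0%; the coloured bars rest on 9 genes or on 7, 11 and 2 peaks.

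Other genes of the same segments were examined by the same rule in 5 lists of 10 genes, all of which matched the gene table. Over the 50 genes, 29 had a kidney peak (58.0%), 18 a liver peak (36.0%) and 14 a heart peak (28.0%), and 16 had none. The shares for all genes given above are 33.5, 34.4 and 23.0%. The median length of the 50 genes was 32.4 kb, beside 17.3 kb for all protein-coding genes. The 5 lists were chosen with earlier results of these data known, and no test was made. Neighbouring genes can share a peak.

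Of the podocyte and slit diaphragm genes, 4 of 10 had a kidney peak, 4 a liver peak and 3 a heart peak. This was the lowest kidney count of the 5 lists, and its share of 40.0% stood beside 33.5% of all genes. The genes of this list were also the longest, with a median of 112 kb. The highest kidney score was 50 near Actn4, an actin cross-linker of podocyte processes, at rank 838 in a site shared with liver that was nearest to Eif3k. The kidney-only peak near Ptpro, a podocyte tyrosine phosphatase, scored 27 and lay closer to Rerg.

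In the endocytosis list, which covers the machinery that serves megalin and cubilin, kidney peaks lay near 6 of 10 genes and liver and heart peaks near 2 each. The kidney peak near Lrpap1, the chaperone of megalin, scored 35 at rank 1473, was shared with liver and lay just within the 50 kb limit, nearest to Hgfac. Amn encodes the membrane anchor of cubilin, and its kidney-only peak (score 31, rank 1729) was 31.0 kb away, nearest to Traf3. A kidney-only peak 14.6 kb from Rab11a, a recycling endosome GTPase, scored 29 and was nearest to Megf11. No kidney peak lay near Dab2 or Clcn5, which act in the same uptake route.

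Among 10 genes of the thick ascending limb and distal convoluted tubule, 6 had a kidney peak, 5 a liver peak and 4 a heart peak. The thiazide-sensitive transporter gene Slc12a3 had the strongest, a site of all 3 tissues with kidney score 117 at rank 132, 21.3 kb away and nearest to Herpud1. The kidney peak near Cldn19, a tight junction gene, scored 27 and was found in kidney alone, 41.1 kb away and nearest to Ppih.

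The calcium, phosphate and FGF23 list had kidney peaks near 7 of 10 genes, liver peaks near 4 and heart peaks near 3. Atp2b1, the calcium pump of the plasma membrane, had a site of all 3 tissues 0.445 kb outside the gene with kidney score 106 at rank 170, and it was the nearest gene. Slc34a1, the proximal tubule phosphate transporter, had a kidney score of 69 at rank 458 in a site shared with liver and nearest to Rgs14. Fgfr1, the receptor that klotho serves, had a kidney score of 49 at rank 873 in a site of all 3 tissues. That site was 25.9 kb away and nearest to Nsd3. Trpv5, S100g and Slc8a1, which carry calcium through the cells that hold calbindin, had no peak in any list.

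In the collecting duct list 6 of 10 genes had a kidney peak, 3 a liver peak and 2 a heart peak. The highest kidney scores were 114 near Slc4a1, an anion exchanger, 68 near Scnn1a, a sodium channel subunit, and 46 near Aqp3, a water channel. These sites were 43.3, 42.6 and 35.8 kb from the genes and nearest to Slc25a39, Tuba3a and Aqp7. The site near Slc4a1 was shared with liver (liver score 152, rank 138 of 4813), the site near Scnn1a was found in all 3 tissues, and the one near Aqp3 in kidney alone.

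**Figure D4:**
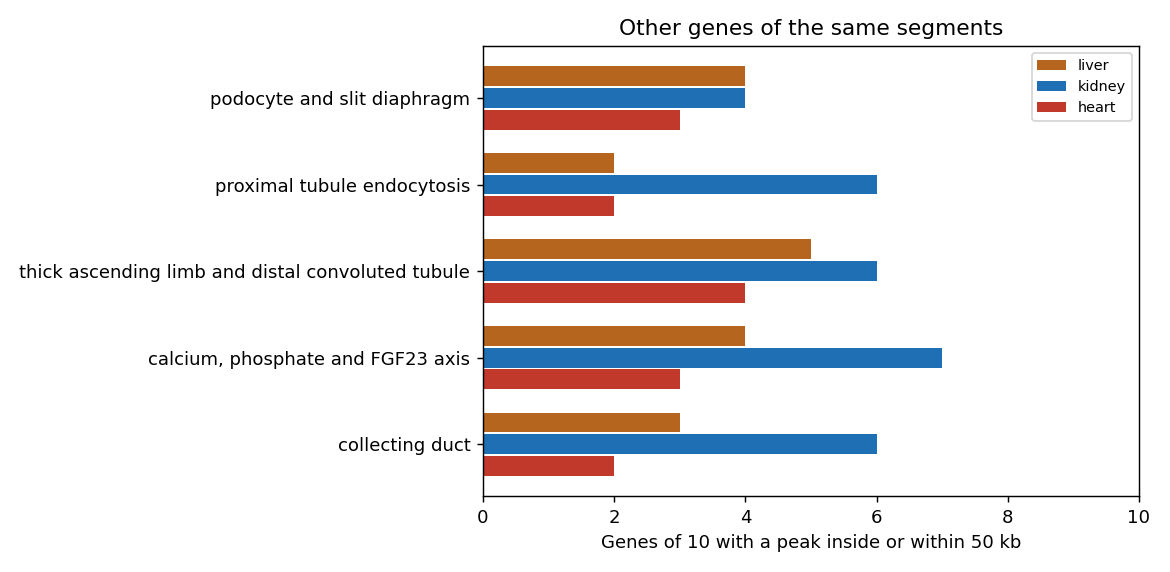
Bars give the number of genes, of 10 in each list, with a liver, kidney or heart peak inside or within 50 kb. Kidney counts run from 4 in the podocyte list, where liver also reaches 4, to 7 in the calcium and phosphate list.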

How the data were processed

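Per the labels, BMAL1 ChIP and input libraries were made from sonicated nuclei of tissue fixed with 1% formaldehyde. Each library took 10 ng of DNA through 16 cycles of PCR, and reads were 75 bp long. The submitters' processing notes name Bowtie2, SAMtools, HOMER and the build mm10 (GRCm38), with no version or parameter. The authors deposited 1 peak list per tissue, pooled over its ChIP and input libraries, with 1 score per peak; how the score was made, and the read depth, were not stated. All peaks of a list had 1 width, which was 188 bp for kidney, 198 bp for heart and 242 bp for liver. A more deeply read pool can hold more weak peaks, so a missing peak is not an absence of binding.

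Starts were counted from 1. Distances run from peak centres to RefSeq gene ends. Peaks overlapping by at least 1 bp counted as shared. Tied scores took their best rank. The 9 genes and 5 lists were chosen with earlier results of these data known; every gene and site of the 9 is named, and in each other list the 3 genes with the highest kidney score, except that some of these are not reported here. Selection, sharing and ranks were tested on simulated data. Python 3.11.15, pandas 2.3.3 and numpy 2.4.6 were used. Sequences are from RefSeq.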

Additional observations from a re-analysis of the deposited data

How the results depend on the processing

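The counts depended on distance and on weak peaks. Within 10 kb the liver list gave 1 gene and 1 peak, and the kidney list 4 genes and 5 peaks, 4 of them kidney-only; counting a peak only where a marker was its nearest protein-coding gene gave 1 and 1 in liver and 4 and 4 in kidney, 3 of them kidney-only. The upper 50% of each list by score left 5 kidney peaks, 2 of them kidney-only, and 1 heart gene with 1 peak, while the top 2519 peaks by score in each list left 7 kidney peaks, 4 of them kidney-only. A limit of 100 kb moved none of the 7 counts by more than 1.5 times, and counting peaks as shared by centres within 1000 bp or by 50% overlap, or leaving out the heart list (an alternative chosen after seeing the data), kept the kidney-only count at 7. With the worst rank of tied scores, 9 of 20 ranks stayed within a 95% binomial interval around their percent. That interval was only a yardstick for a small move, since a rank in a complete list has no sampling spread. The other 11 became 3801 and 1657 near Umod in kidney, 3479 and 3634 near Cubn in kidney, and 3065 in liver and 1825 in heart there. Further ones became 2131 at the upper end of Cdh16, 2590 at Kl, and 2480, 1965 and 3801 near Calb1. No replicate could be left out because each list pools its libraries. Depth and spread between animals are unknown, and a low-scoring site may be missing from another list for that reason.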

Other observations

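Genes of the other lists that held a kidney-only peak as their highest kidney peak and were themselves the nearest protein-coding gene were picked out after their values were seen. They were Magi2, a scaffold of the slit diaphragm (score 17, inside the gene), Cltc, the clathrin heavy chain (score 27, 0.317 kb outside), Vdr, the vitamin D receptor (score 15, inside), Pth1r, the parathyroid hormone receptor (score 35, 1.52 kb outside), and Foxi1, a transcription factor of intercalated cells (score 20, 48.9 kb outside). Their ranks in the kidney list ran from 1473 for Pth1r to 3635 for Vdr, so all 5 lay below the Lrp2 and Nphs1 peaks. Magi2 also had a heart peak inside the gene that did not overlap the kidney peak (score 27, rank 1123 of 2519).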
